A study of Mus musculus with 24 samples.

Results

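Egr1, Egr2, Egr3, Nr4a1, Nr4a2, Nr4a3 and Arc are 7 early response genes, whose messenger RNA rises and decays quickly after a cell is stimulated. They were read from the array rows (probe sets) annotated with that gene symbol and no other, and are 7 of the 14489 genes tested. Each of them had 1 such row, so no choice between rows was needed. All 7 passed the filter on dim rows, and each lay at or above the 40th percentile of its array on 24 of 24 arrays. The filter therefore removed none of them.

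RNA came from MLO-Y4 cells, an immortalised mouse line with features of osteocytes, the cells embedded in bone matrix. All cells received an antibody. In the IgG arm it was an irrelevant IgG from rabbit, and in the E2 arm Cx43(E2), a blocker of connexin 43 hemichannels, each at 1:50 for 30 min, the latter at 28 µg/ml. They were then kept in an ordinary incubator (C) or at 1 of 3 positions on a high magneto-gravitational platform. The positions are 1g, 2g and μg, written ug here, which gave 8 groups of 3 arrays. A set, such as E2 2, is made up of the 4 arrays with the same replicate number in one arm. The time spent on the platform is not given in the sources used here, and no label says that replicates were separate cultures, so p-values measure only the spread between these arrays. The material is 1 cell line throughout, with no untreated cells in the comparisons.

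Egr1, Egr2 and Egr3 encode zinc finger transcription factors that bind GC-rich sites. Nr4a1, Nr4a2 and Nr4a3 encode orphan nuclear receptors, which bind DNA without a known physiological ligand and are governed mostly by how much of each is made. Arc encodes a cytoskeleton-associated protein, best known from neurons, that is no transcription factor but is switched on by the same kinds of signal. Calcium, cyclic AMP and MAP kinase signals reach genes of this kind through CREB, which binds the cyclic AMP response element (CRE), and through serum response factor (SRF), which binds the CArG box. In bone cells, Egr1 is known to respond to mechanical load, and the Nr4a genes to parathyroid hormone.

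Promoter windows, 250 bases before to 50 after a start site, were taken from the RefSeq table (GRCm38.p6) for 4 of the 7 genes: Nr4a1, Nr4a2 and Nr4a3 with 1 window each and Egr2 with 5, 8 windows in all. Egr1 was left out of the search by choice, and no window was held for Egr3 or Arc. The windows are shown to give the letters around the start sites, and the CRE half-sites among them, for the Nr4a genes and Egr2. No link between these matches and the levels was tested. Capitals mark the half-site TGACG on either strand, the CArG box in Egr2 and the EGR site GCGGGGGCG on the other strand in Nr4a1. The windows are chr15:101266596-101266895, plus strand, for Nr4a1, chr2:57123954-57124253, minus strand, for Nr4a2, chr4:48045055-48045354, plus strand, for Nr4a3, and chr10:67537619-67537918, plus strand, for the third window of Egr2. All are written 5′ to 3′ on the strand of the gene.
Nr4a1: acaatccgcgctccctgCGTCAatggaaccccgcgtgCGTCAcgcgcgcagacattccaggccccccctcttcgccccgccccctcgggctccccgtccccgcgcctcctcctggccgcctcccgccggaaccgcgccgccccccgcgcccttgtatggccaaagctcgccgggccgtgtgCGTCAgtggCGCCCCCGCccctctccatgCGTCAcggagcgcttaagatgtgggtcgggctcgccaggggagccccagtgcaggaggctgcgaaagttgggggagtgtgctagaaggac
Nr4a2: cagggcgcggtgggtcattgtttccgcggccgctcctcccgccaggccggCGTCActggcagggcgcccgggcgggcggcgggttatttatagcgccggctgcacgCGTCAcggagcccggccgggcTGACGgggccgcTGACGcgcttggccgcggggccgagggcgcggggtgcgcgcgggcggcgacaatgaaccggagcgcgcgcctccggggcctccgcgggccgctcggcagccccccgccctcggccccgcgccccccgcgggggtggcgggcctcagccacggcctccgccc
Nr4a3: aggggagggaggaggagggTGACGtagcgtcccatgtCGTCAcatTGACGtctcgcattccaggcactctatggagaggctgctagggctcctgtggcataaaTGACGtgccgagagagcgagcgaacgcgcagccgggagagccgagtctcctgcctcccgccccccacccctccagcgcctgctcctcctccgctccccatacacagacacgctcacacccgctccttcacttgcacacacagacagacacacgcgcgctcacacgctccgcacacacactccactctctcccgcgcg
Egr2: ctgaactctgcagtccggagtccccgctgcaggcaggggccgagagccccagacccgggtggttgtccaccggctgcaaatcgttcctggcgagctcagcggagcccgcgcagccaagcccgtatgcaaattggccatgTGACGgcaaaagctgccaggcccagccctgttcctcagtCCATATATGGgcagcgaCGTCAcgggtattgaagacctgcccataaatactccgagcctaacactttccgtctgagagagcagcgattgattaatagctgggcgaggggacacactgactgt

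Each of the 3 Nr4a windows held 4 half-sites. Their first bases lay at -233, -213, -69 and -40 from the start site in Nr4a1, at -200, -144, -123 and -111 in Nr4a2, and at -231, -213, -205 and -147 in Nr4a3. Of the 32851 windows in the table, 20.8% held at least 1 half-site and 0.231% held at least 4. The half-site contains CG, so GC-rich windows hold it more often, and a gene with several start sites is counted several times in these shares. Of the 5 Egr2 windows, the first held none of the motifs searched and the second 1 CArG box and no half-site. The other 3 overlap, and each held 2 half-sites and 1 CArG box. The third window is printed as the first of those that hold both motifs, with half-sites at -111 and -55 and the CArG box, a motif found in 1.63% of windows, at -72. The EGR site GCGGGGGCG, found in 2.91% of windows, lay at -60 in Nr4a1. The full CRE TGACGTCA (1.79% of windows), the Nr4a response element AAAGGTCA (1.51%) and GCGTGGGCG (0.612%), each searched on both strands, had no match in these 8 windows. A match is a description of letters, not a bound site.

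Deposited values are log2 intensities between 2.36 and 14.06, with array medians between 6.48 and 6.65, and the number of arrays limits the precision. Arrays of 1 set resembled each other: the first principal component (44.6% of the variance) placed sets IgG 1, IgG 2 and E2 3 on one side and IgG 3, E2 1 and E2 2 on the other. In set IgG 2 the 2g array, and not the ug array, was the highest for all 7 genes. Because arrays of 1 set resembled each other, the replicate number within an arm was also used as a block. The blocked value is given where it alters a call. A gene is called when its Benjamini-Hochberg adjusted p from limma over all 14489 genes is under 0.05. Among osteocyte markers, Gja1 (connexin 43; 11.37 to 12.002) and Pdpn (12.50 to 12.84) were bright on every array, while Dmp1, Phex, Mepe and Sp7 lay under the 40th percentile on all 24. In all, 9 of 14 osteocyte marker rows reached it on every array, Sost (mean 7.07) and Fgf23 (7.04) among them. Of 9 neuron marker rows, Tubb3, Syp and Camk2a reached it on every array, Snap25 on 17, Syt1 on 16 and Rbfox3 on 2, and Map2, Nefl and Gria1 on none.

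In the E2 arm the ug arrays carried the highest mean level of all 8 groups for each of the 7 genes, and the largest differences were those of Nr4a1, Egr1, Nr4a3, Egr2 and Arc. The share of all genes with E2 ug highest is not given here. For Egr3 the gap to the next group, E2 C, was only 0.058, against an SD of 0.35 at E2 ug. Against the mean of C, 1g and 2g in the same arm, ug was higher by 1.15 (log2) for Nr4a1, 1.03 for Egr1, 1.01 for Nr4a3, 0.77 for Egr2 and 0.70 for Arc, with 0.28 for Nr4a2 and 0.12 for Egr3. The median over the 7 genes was 0.77, and over all genes tested -0.01. Without a block, limma called 2 of 14489 genes (0.0138%), A3galt2 and Slc23a3, and none of the 7. At an unadjusted p under 0.05, 4.82% of all genes and 5 of the 7 passed. With the replicate block it called 26 genes (0.179%), 25 of them higher (0.173%), and 2 of these were Egr1 and Nr4a3. In bulk RNA, more cells with a transcript and more of it per cell cannot be told apart.

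**Figure D1:**
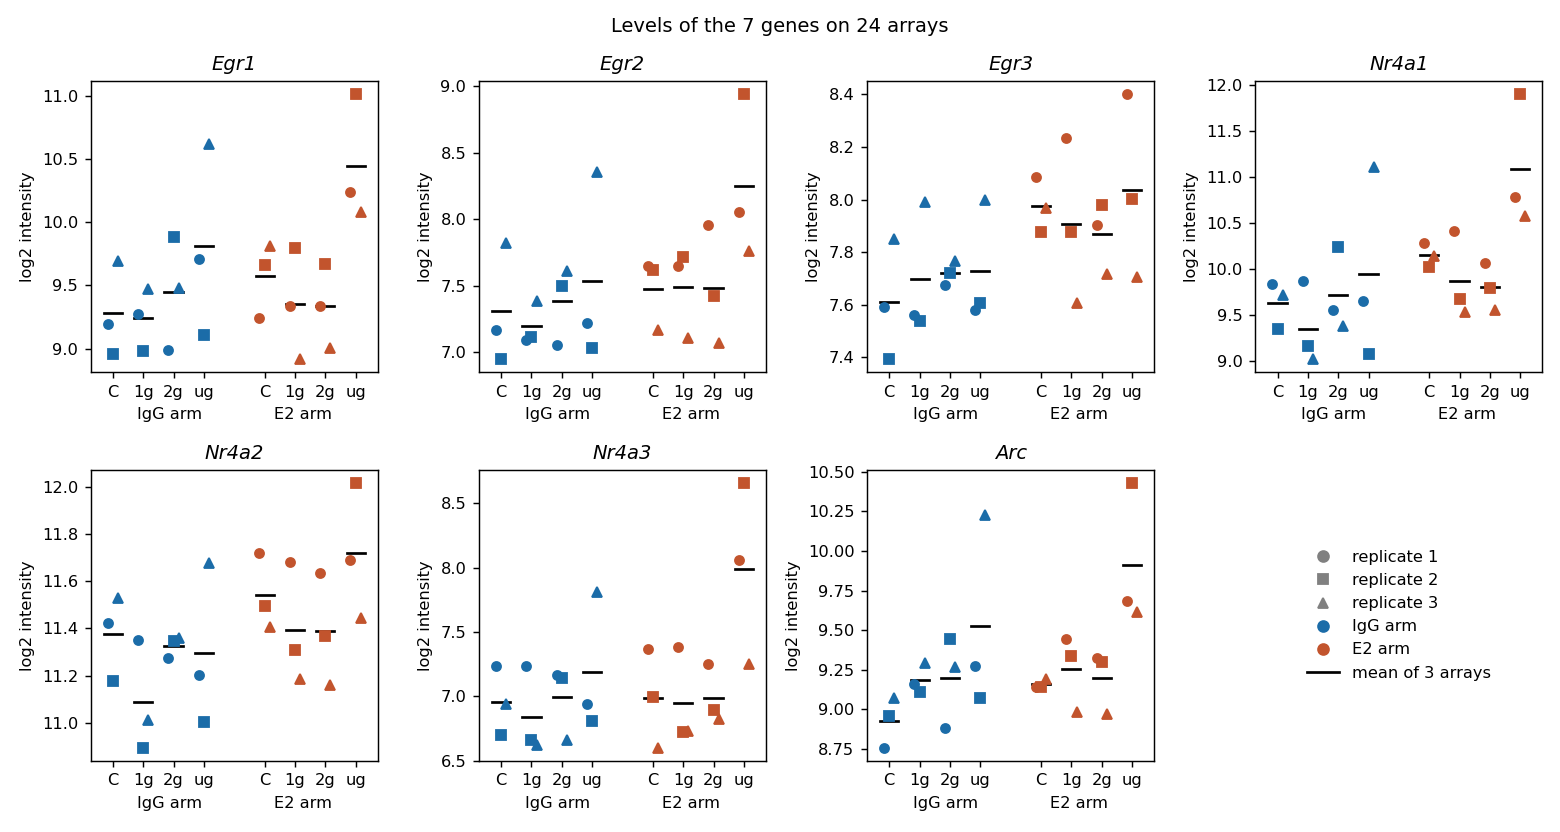
Levels of the 7 genes on each of the 24 arrays, as log2 intensity (vertical axis, own scale per gene) by environment and arm (horizontal axis); symbols are replicate numbers and bars are means of 3 arrays. At ug in the E2 arm all 3 arrays of Egr1, Nr4a1 and Arc stand above the other 9 arrays of that arm, and at ug in the IgG arm the array of replicate 3 stands above its 2 partners.

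Egr1, the best known factor of its family, was at 10.24, 11.02 and 10.09 at ug in sets E2 1, 2 and 3, and at 9.24, 9.66 and 9.82 at C. At 1g the same sets were at 9.34, 9.80 and 8.92, and at 2g at 9.34, 9.67 and 9.003. The 3 ug arrays lay above the other 9 of the arm, which held for 3 of the 7 genes (Egr1, Nr4a1 and Arc) and for 0.49% of all genes. Set E2 3 differed from its partners in that its C array nearly reached its ug array, with ug higher by only 0.27, while ug exceeded 1g by 1.17. The ug mean of 10.45 ± 0.50 (SD, n = 3) exceeded the mean of the other environments 2.04-fold (log2 difference 1.03, SE 0.27, 95% interval 0.46 to 1.59). Its adjusted p from limma was 0.455 without the block and 0.0404 with it (SE 0.19), where Egr1 rose.

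Egr2, a relative of Egr1 best known from the myelination of nerves, was at 8.05, 8.94 and 7.76 at ug in sets E2 1, 2 and 3. Its C arrays were at 7.65, 7.62 and 7.17 and its 1g arrays at 7.65, 7.72 and 7.10. The 2g arrays, at 7.96, 7.43 and 7.07, reached into the range of ug because set E2 1 was high there. The ug mean was 8.25 ± 0.62, against 7.48 ± 0.27 at C, and the difference from the other 3 environments was 0.77 (SE 0.27), a ratio of 1.70. Limma gave an adjusted p of 0.870 without the block and 0.0538 with it, so Egr2 was not called in either fit.

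Egr3, known from lymphocytes and muscle spindles, showed no such pattern. Its ug arrays were at 8.40, 8.001 and 7.71 and its C arrays at 8.09, 7.88 and 7.97 in sets E2 1, 2 and 3. The 1g arrays were at 8.23, 7.88 and 7.61 and the 2g arrays at 7.91, 7.98 and 7.72. In set E2 3 the C array was the highest of the 4. The difference of ug from the other environments was 0.12 (SE 0.14, 95% interval -0.18 to 0.42), so a 2-fold rise like that of Egr1 (log2 difference of 1) lies outside its interval, and leaving out the ug array of set E2 1 turned it to -0.06. Limma's adjusted p was 1.00 without the block and 0.686 with it. For Egr3 the spread between set means (SD 0.22) was larger than the spread within sets (SD 0.13), the reverse of Egr1 (0.31 and 0.51).

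Nr4a1 (Nur77), a classic immediate early gene, had the widest range of the 7 over the 24 arrays, 2.88. At ug it was at 10.78, 11.90 and 10.58 in sets E2 1, 2 and 3, and at C at 10.28, 10.02 and 10.14. It was at 10.42, 9.67 and 9.54 at 1g and at 10.06, 9.79 and 9.56 at 2g. All 3 ug arrays lay above the other 9, and set E2 2 was far above the other sets. Within sets, ug exceeded the mean of the other 3 arrays by 0.53, 2.08 and 0.83. The ug mean of 11.09 ± 0.71 was 2.21-fold that of the other environments (log2 difference 1.15, SE 0.33), with an adjusted p from limma of 0.531 without the block and 0.118 with it.

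Nr4a2 (Nurr1), known from dopaminergic neurons and also induced by parathyroid hormone in osteoblasts, differed least of its family. It was at 11.69, 12.02 and 11.44 at ug and at 11.72, 11.50 and 11.40 at C in sets E2 1, 2 and 3. At 1g it was at 11.68, 11.31 and 11.19, and at 2g at 11.64, 11.37 and 11.16. In set E2 1 the 4 arrays spanned only 0.08, and the ug array was not the highest. The difference of ug from the other environments was 0.28 (SE 0.14, a ratio of 1.21), with an adjusted p from limma of 1.00 without the block and 0.270 with it.

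Nr4a3 (NOR-1), the third receptor of the family, was at 8.06, 8.66 and 7.25 at ug in sets E2 1, 2 and 3. It was at 7.37, 6.997 and 6.60 at C, at 7.38, 6.72 and 6.73 at 1g and at 7.25, 6.89 and 6.82 at 2g. In each set ug was the highest of the 4 arrays, but ug of set E2 3 lay below C and 1g of set E2 1, so the groups overlapped. The ug mean of 7.99 ± 0.71 was 2.02-fold that of the other environments (log2 difference 1.01, SE 0.25, 95% interval 0.49 to 1.54). Limma's adjusted p was 0.386 without the block and 0.0420 with it (SE 0.20), where Nr4a3 rose.

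Arc was at 9.68, 10.43 and 9.62 at ug in sets E2 1, 2 and 3 and at 9.14, 9.14 and 9.19 at C. It was at 9.44, 9.34 and 8.98 at 1g and at 9.33, 9.30 and 8.97 at 2g. The ug arrays again lay above the other 9 without overlap. The ug mean of 9.91 ± 0.45 exceeded that of the other environments by 0.70 (SE 0.19, a ratio of 1.63), with an adjusted p from limma of 0.474 without the block and 0.0532 with it. The mean over the 9 neuron marker rows was 5.98 to 6.04 on the E2 ug arrays and 5.95 to 6.02 on the E2 C arrays.

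**Figure D2:**
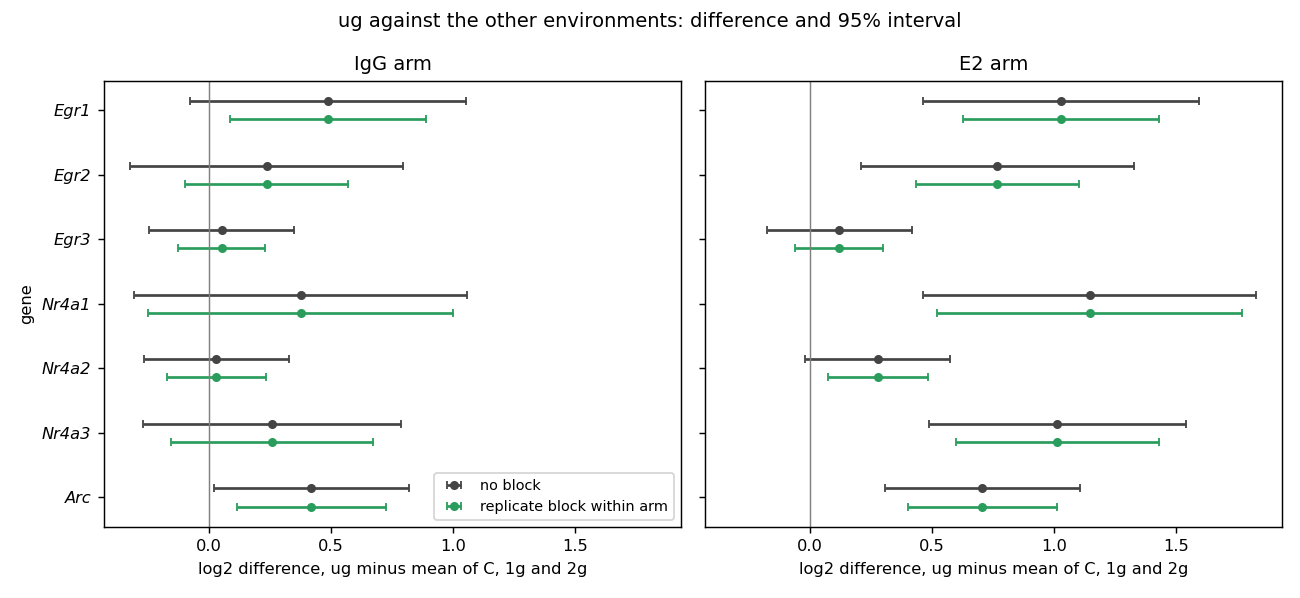
Log2 difference of ug from the mean of C, 1g and 2g (horizontal axis) for each gene (vertical axis) in the IgG arm (left) and the E2 arm (right); points are estimates and bars 95% intervals, without a block (grey) and with the replicate block within arm (green). In the E2 arm 5 genes lie near 0.70 to 1.15 and Egr3 and Nr4a2 nearer 0, and the block narrows the intervals without moving the points.

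The blocked calls rested on particular arrays and settings. Leaving out set E2 2 left no gene called, with differences of 0.89 for Egr1 and 0.63 for Nr4a3 (adjusted p = 0.713 for each), and leaving out set E2 3 left 11 genes called and none of the 7. Leaving out set E2 1 gave 115 called genes, 4 of them Egr1, Egr2, Nr4a3 and Arc. Without limma's variance trend the blocked fit called no gene, and both Egr1 and Nr4a3 had an adjusted p of 0.0940. With the arrays of the E2 arm alone it called 49 genes and 5 of the 7.

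Counted set by set, ug was the highest of the 4 arrays in 3 of 3 E2 sets for Egr1, Egr2, Nr4a1, Nr4a3 and Arc, a pattern that 1.83% of all genes showed. It was the highest in 2 of 3 E2 sets for Egr3 and Nr4a2. Set E2 2 gave the largest within-set excess of ug over the other 3 arrays for 6 of the 7 genes, among them 2.08 for Nr4a1, 1.79 for Nr4a3, 1.35 for Egr2 and 1.31 for Egr1. Egr3 was the exception, with 0.33 in set E2 1 and 0.09 in set E2 2.

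Against C alone, the incubator of the same arm, ug in the E2 arm was higher by 1.00 (SE 0.31) for Nr4a3, 0.94 (0.40) for Nr4a1, 0.87 (0.33) for Egr1, 0.77 (0.33) for Egr2 and 0.75 (0.24) for Arc. Limma called no gene in this comparison in either fit (611 genes, 4.22%, and 5 of the 7 had an unadjusted p under 0.05 without the block), and the blocked adjusted p of the 7 ran from 0.175 to 0.899. Egr1, Egr2, Nr4a1 and Arc did not overlap between ug and C, as 2.82% of all genes did in that direction. Against the 1g position of the platform the differences were 1.21 (SE 0.40) for Nr4a1, 1.10 (0.33) for Egr1, 1.04 (0.31) for Nr4a3, 0.76 (0.33) for Egr2 and 0.65 (0.24) for Arc. Again no gene was called in either fit, with 513 genes (3.54%) at an unadjusted p under 0.05 without the block. Both comparisons use the same ug arrays. The 1g and 2g positions themselves differed from C by between -0.34 and 0.10 in the E2 arm, and no gene was called there (453 genes, 3.13%, and 285, 1.97%, at an unadjusted p under 0.05, none of them among the 7). Between 2g and 1g there, the 7 genes differed by -0.07 to 0.04 with none called (2.46% of all genes, and none of the 7, at an unadjusted p under 0.05).

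In the IgG arm the ug position gave smaller and less regular differences. Against the mean of C, 1g and 2g, ug was higher by 0.49 (SE 0.27) for Egr1, 0.42 (0.19) for Arc, 0.38 (0.33) for Nr4a1, 0.26 (0.25) for Nr4a3, 0.24 (0.27) for Egr2, 0.05 (0.14) for Egr3 and 0.03 (0.14) for Nr4a2. Limma called no gene with or without the block (158 genes, 1.09%, at an unadjusted p under 0.05 without it, Arc among them), and the adjusted p of each of the 7 was 1.00. No gene of the 7 was highest at ug in 3 of 3 IgG sets, which 0.704% of all genes were. Egr1, Egr2 and Arc were highest there in 2 of 3 sets, as 10.8% of genes were in at least that many.

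The 3 IgG sets went different ways. Egr1 was at 9.71, 9.11 and 10.62 at ug in sets IgG 1, 2 and 3, against 9.20, 8.96 and 9.70 at C. Its 1g arrays were at 9.27, 8.98 and 9.47 and its 2g arrays at 8.99, 9.89 and 9.48. Set IgG 3 was thus high at ug and set IgG 2 at 2g. Nr4a1 was at 9.66, 9.07 and 11.10 at ug and at 9.84, 9.34 and 9.71 at C, with 9.86, 9.16 and 9.02 at 1g and 9.55, 10.23 and 9.38 at 2g. In set IgG 3 its ug array exceeded the mean of the other 3 by 1.73, while in sets IgG 1 and IgG 2 it lay below them (-0.10 and -0.51).

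Egr2 was at 7.22, 7.03 and 8.36 at ug and at 7.17, 6.95 and 7.82 at C, with 7.10, 7.11 and 7.39 at 1g and 7.05, 7.50 and 7.61 at 2g. Nr4a3 was at 6.94, 6.81 and 7.81 at ug and at 7.23, 6.70 and 6.94 at C, with 7.23, 6.66 and 6.62 at 1g and 7.17, 7.15 and 6.66 at 2g. Both followed Nr4a1 in being high at ug in set IgG 3. Arc was at 9.27, 9.07 and 10.23 at ug and at 8.76, 8.96 and 9.07 at C, so that ug and C just failed to overlap, as 7.36% of genes did in that direction. Its 1g arrays, at 9.16, 9.11 and 9.29, also lay above C (7.91% of genes), and its 2g arrays were at 8.88, 9.45 and 9.27. Egr3 stayed between 7.39 and 7.997 and Nr4a2 between 10.90 and 11.68 over the 12 IgG arrays.

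**Figure D3:**
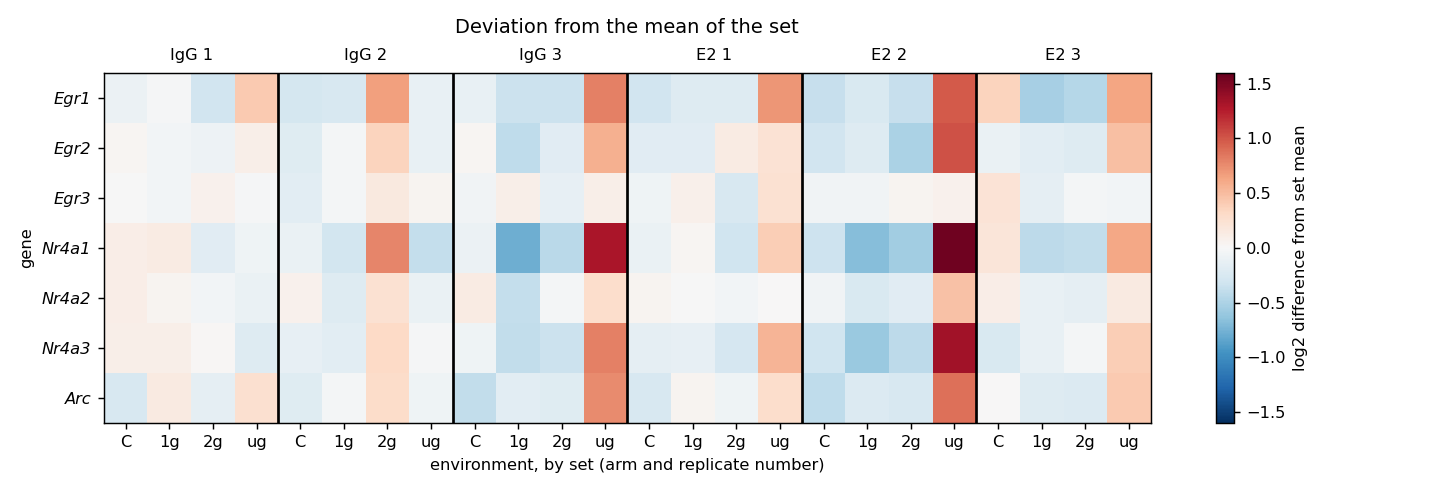
Deviation of each array from the mean of its set (colour, log2) for the 7 genes (rows) on 24 arrays (columns, grouped by set). The ug column is raised in sets IgG 3, E2 1, E2 2 and E2 3, most in E2 2, and in set IgG 2 the raised column is 2g.

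Without the ug array of set IgG 3, the difference of ug from the other environments in the IgG arm became -0.17 for Egr2, -0.20 for Nr4a1 and -0.05 for Nr4a3, and shrank to 0.08 for Egr1 and 0.07 for Arc. In set IgG 2 the highest of the 4 arrays was 2g for all 7 genes, as for 25.9% of all genes, and ug for none (19.2% of genes), so ug was also compared without both of these arrays. On average over the 7 genes, the deviation from the level of that set was 0.40 at 2g and -0.11 at ug. It was 0.66 at ug in set IgG 3, 0.05 in IgG 1, and 0.34, 0.90 and 0.38 in E2 1, E2 2 and E2 3. With these 2 arrays of set IgG 2 left out, the IgG differences of ug from the other environments became 0.91 (SE 0.28) for Egr1, 0.90 (0.34) for Nr4a1, 0.69 (0.21) for Arc, 0.51 (0.32) for Egr2 and 0.47 (0.30) for Nr4a3. Their adjusted p from limma was 1.00 in that fit too. That choice was made after the values of the set were seen, and the labels were used as given elsewhere.

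Against C alone, ug in the IgG arm was higher by 0.60 (SE 0.24) for Arc (adjusted p from limma 0.949) and 0.53 (0.33) for Egr1, with 0.31 (0.40) for Nr4a1 and -0.08 (0.17) for Nr4a2. The 1g position differed from C by -0.29 for Nr4a2, -0.28 for Nr4a1 and 0.26 for Arc. At 2g the differences of the 7 genes lay between -0.05 and 0.27. Limma without a block called no gene at any of the 3 positions against C (748 genes, 5.16%, at ug, 886, 6.11%, at 1g and 1272, 8.78%, at 2g at an unadjusted p under 0.05). With the block it called 7 genes at 1g (0.0483%), none of them among the 7 described here. Against 1g in the IgG arm, ug was higher by 0.59 (SE 0.40) for Nr4a1 and 0.57 (0.33) for Egr1, with no gene called in either fit (1.12% of all genes, and none of the 7, at an unadjusted p under 0.05 without the block). Without the ug array of set IgG 3 these became 0.013 and 0.17, and without that of set IgG 2 1.03 and 0.92.

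Whether the antibody altered these levels was asked within each environment. At ug all 7 genes were higher in the E2 arm, by 1.14 (SE 0.40) for Nr4a1, 0.80 (0.31) for Nr4a3, 0.72 (0.33) for Egr2, 0.64 (0.33) for Egr1, 0.42 (0.17) for Nr4a2, 0.38 (0.24) for Arc and 0.31 (0.17) for Egr3. By size Nr4a1 was the second largest rise and Nr4a3 the sixth of 14489 genes. Limma called no gene, the adjusted p of the 7 ran from 0.304 to 0.498, and 4 of the 7 had an unadjusted p under 0.05, as had 12.9% of all genes. The ug array of set IgG 3 overlapped the E2 ug arrays for all 7. Leaving out that array raised the difference to 1.72 for Nr4a1, 1.13 for Egr2, 1.04 for Egr1 and 0.74 for Arc. Leaving out ug of set IgG 2 gave 0.71 for Nr4a1 and 0.28 for Egr1, and leaving out ug of set E2 2 gave 0.37 for Egr2, 0.47 for Nr4a3 and 0.12 for Arc.

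At C the E2 arm was also higher for all 7, by 0.51 (SE 0.40) for Nr4a1, 0.37 (0.17) for Egr3, 0.29 (0.33) for Egr1, 0.23 (0.24) for Arc and less for the others. Limma called 423 genes in that comparison (2.92%, and 1.6% in the higher direction), none of them among the 7 (adjusted p 0.166 to 0.955). Egr3, Nr4a1 and Arc did not overlap between the arms, as 19% of all genes did in that direction. At 1g and 2g no gene was called (1804 genes, 12.5%, and 626, 4.32%, at an unadjusted p under 0.05, none of the 7), and the differences lay between -0.11 and 0.52. Sets and arms are tied, so the set block could not be fitted to these comparisons. In every environment, ug included, a difference between the arms cannot be told apart from one between their sets. With set as a random block, limma called no gene at C.

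The test of the difference between arms in ug against C gave 0.77 (SE 0.44) for Nr4a3, 0.63 (0.57) for Nr4a1, 0.55 (0.46) for Egr2, 0.34 (0.47) for Egr1, 0.26 (0.25) for Nr4a2, 0.15 (0.33) for Arc and -0.06 (0.25) for Egr3. Their adjusted p from limma was 1.00 for each, and between 0.684 and 0.942 with the block. No gene was called in either fit (523 genes, 3.61%, at an unadjusted p under 0.05 without the block, none of the 7). The calls of Egr1 and Nr4a3 in the E2 arm are therefore not shown to be particular to that arm. The 95% interval for Egr1 ran from -0.63 to 1.32 and that for Nr4a3 from -0.14 to 1.68, so neither equal differences nor a 2-fold gap (log2 difference of 1) lay outside them. Without those 2 arrays of set IgG 2 the value was -0.0076 for Egr1, -0.07 for Arc, -0.12 for Egr3, 0.11 for Nr4a2, 0.19 for Nr4a1, 0.29 for Egr2 and 0.58 for Nr4a3. Those arrays were left out because of the values of these same genes, so this fit does not test whether the arms differ. Leaving out 1 array at a time gave 0.19 to 1.21 for Nr4a1, 0.20 to 0.96 for Egr2 and 0.43 to 1.14 for Nr4a3. Egr1 (-0.0076 to 0.75) and Arc (-0.11 to 0.51) crossed 0.

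Ordered by mean level, E2 ug came first of the 8 groups for all 7 genes, an order whose share over all genes is not given here. IgG ug came second for Egr1 (9.81 ± 0.76), Egr2 (7.54 ± 0.72), Nr4a3 (7.19 ± 0.55) and Arc (9.52 ± 0.62), and E2 C for Egr3 (7.98 ± 0.11), Nr4a1 (10.15 ± 0.13) and Nr4a2 (11.54 ± 0.16). Of the 49 gaps between neighbours in these orders, 3 exceeded the larger SD of their 2 groups: E2 ug above E2 C for Nr4a1, E2 ug above IgG ug for Nr4a3, and E2 C above IgG C for Arc. The lowest group was IgG 1g for Egr1 (9.24 ± 0.25), Egr2 (7.20 ± 0.16), Nr4a1 (9.35 ± 0.45), Nr4a2 (11.09 ± 0.24) and Nr4a3 (6.84 ± 0.34). For Egr3 (7.61 ± 0.23) and Arc (8.93 ± 0.16) it was IgG C. The other groups were not separated from their neighbours by more than that spread.

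The levels of 6 of the genes varied together from array to array. Over the 24 arrays, after subtracting each set's mean, Pearson's r between pairs of Egr1, Egr2, Nr4a1, Nr4a2, Nr4a3 and Arc lay between 0.64 (Nr4a2 with Arc) and 0.92 (Nr4a1 with Nr4a3). Egr3 correlated with the others at 0.21 to 0.55. The arrays share environments and sets, so these values describe the data and carry no test. The genes whose within-set profile was most like the mean of the 7 were Tob2 (r = 0.98), an antiproliferative gene, Fos (0.97), Csrnp1 (0.96), Fosb (0.96), Atf3 (0.96), Adamts1 (0.95), Rgs2 (0.95), Plk3 (0.95), A3galt2 (0.93) and Dusp1 (0.93), a phosphatase gene for MAP kinases. With the values as deposited, 5 of these 10 stayed among the 10 most alike.

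Taken gene by gene, Tob2 (0.95), Gem (0.94) and Fos (0.93) were most like Egr1, and Csrnp1 (0.94), Fos (0.94) and Rgs2 (0.93) most like Egr2. Dusp1 (0.96), Csrnp1 (0.96) and Tob2 (0.95) followed Nr4a1, Fam110c (0.92), Dusp1 (0.90) and Pde4d (0.89) followed Nr4a2, and Rgs2 (0.94), Adamts1 (0.94) and Atf3 (0.93) followed Nr4a3. Arc was most like Fos (0.96), Atf3 (0.95) and Fosb (0.95). The genes most like Egr3 were others, Msc (0.88), Chga (0.88) and the row annotated Mir181d (0.86), whose own differences at ug in the E2 arm were 0.04, 0.03 and 0.10.

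Other immediate early genes were read beside them as a list of 24, all of them tested. At ug in the E2 arm 21 of 24 were higher than the mean of the other environments, with a median of 0.36 against -0.01 for all genes. None was called without the block, and 6 rose with it: the AP-1 genes Fosb (1.44 ± 0.29 SE without the block, blocked adjusted p from limma 0.0308), Fos (1.29 ± 0.28, 0.0403) and Junb (0.55 ± 0.16, 0.0471), the stress-response factor gene Atf3 (1.41 ± 0.26, 0.0215), the Krüppel-like factor gene Klf4 and Gem, a small GTPase gene with the largest difference of the list (2.89). Fosl1 and Jun, also AP-1 genes, differed by 0.02 and -0.00018, and Klf10 by -0.28 (blocked adjusted p 0.0943). In the IgG arm the median of the list was 0.10 and none was called in either fit.

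Of 14 CREB targets other than the genes described here, 13 were tested, 12 of them higher at ug in the E2 arm, with a median of 0.26. Dusp1, like Fos, is also on the list of other immediate early genes, so the medians of these lists are not separate. Crem, which encodes CREB-family activators and repressors, rose with the block (0.48, blocked adjusted p from limma 0.0404), as did Fos, which both lists hold. Sik1 (0.41, blocked adjusted p 0.224) and Ppargc1a (0.56, 0.0993) were not called. The factors that act upstream differed little: 5 of 17 SRF, ternary complex and CREB genes were higher, with a median of -0.03, and of them limma called Crem, also on this list, and no other, with the block. Srf itself differed by -0.11 (SE 0.07) and Creb1 by 0.09 (0.08).

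Partners and brakes of the EGR and NR4A proteins differed little at ug in the E2 arm. Of 10 listed genes 9 were tested and 6 were higher, with a median of 0.03 and none called in either fit. The EGR corepressor genes Nab1 and Nab2 differed by 0.04 (SE 0.11) and -0.01 (0.10), and Rxra and Rxrb, whose receptors pair with Nr4a1 and Nr4a2, by -0.02 and 0.06. Egr4, the remaining member of the EGR family, differed by 0.08 (SE 0.09) at ug. It was higher in the E2 arm than in the IgG arm at C by 0.42 (SE 0.11), with an adjusted p from limma of 0.0464, in the comparison that kept no called gene with set as a random block.

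**Figure D4:**
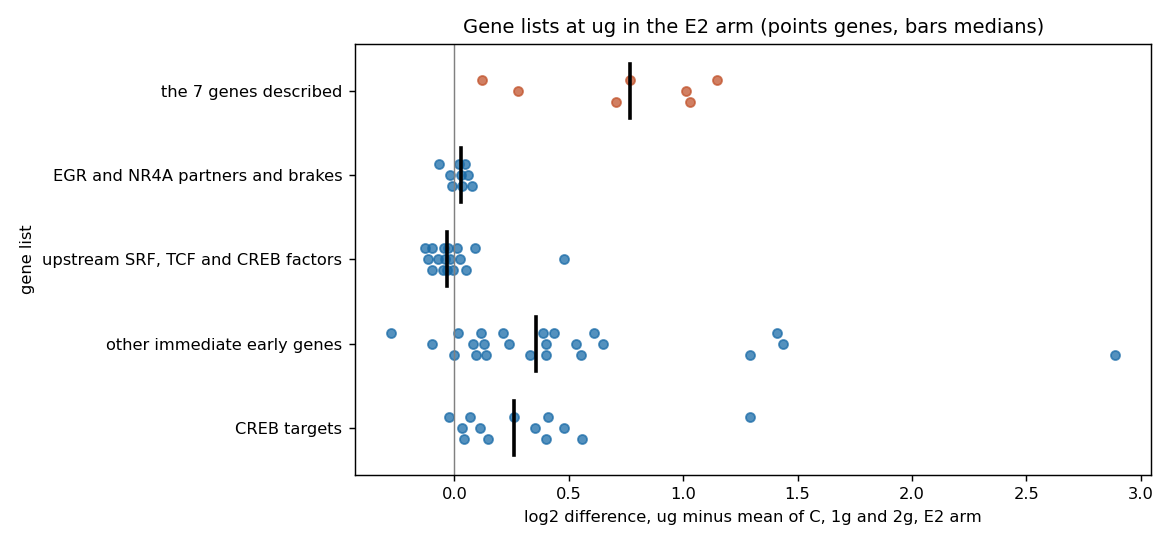
Log2 difference of ug from the mean of C, 1g and 2g in the E2 arm (horizontal axis) for the genes of 5 lists (vertical axis); points are genes and bars are list medians. The medians are 0.77 for the 7 genes, 0.36 for other immediate early genes and 0.26 for CREB targets, and near 0 for upstream factors and for partners and brakes. Fos, Dusp1 and Crem recur between lists.

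Markers of cell types that the culture should lack were compared in the same groups. The mean over 9 endothelial marker rows was 6.77 to 6.80 on the E2 ug arrays and 6.75 to 6.88 on the E2 C arrays, and that over 10 macrophage rows 6.52 to 6.64 and 6.503 to 6.63. Of the macrophage rows, Cd14 (mean 8.91), Cd68 (8.66), Lyz2, Csf1r and Tyrobp reached the 40th percentile on all 24 arrays, and Ptprc, Adgre1 and C1qa on none. Of the endothelial rows, Eng (11.65), Vwf, Cldn5, Cdh5 and Tie1 reached it on all 24 and Emcn on none. Pecam1, which reached it on 4 arrays, was higher at ug in the E2 arm by 0.35 (SE 0.10, adjusted p from limma 0.526 without the block and 0.154 with it), and its part in the result was not tested.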

How the data were processed

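Expression was measured on 24 arrays, 3 for each of 8 groups read from sample titles and source names. The authors' deposited table holds log2 values, judged from the values themselves. MAS5 is named, per the submitters' processing notes, without a role or version, and how the arrays were scaled to one another is not given in the sources used here. Of 35556 rows, the probe table named 1 gene for 21789, several for 1621 and did not list 12146, and 21698 of the first matched RefSeq by gene number. Rows at or above the 40th percentile on 3 or more arrays were kept (22641, of which 15786 named 1 gene), and the brightest row per gene gave 14489 genes. The SD of the difference between replicate arrays was 0.21 to 0.38, and no pair held more than 6 identical values.

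Levels were fitted with limma 3.58.1 (R 4.3.3) as 8 group means without a block, with a variance trend, two-sided, in 17 comparisons, and adjusted by Benjamini-Hochberg within each (threshold 0.05). Residual and prior degrees of freedom were 16 and 4.08, and 12 and 8.29 with the block. No label says that a replicate number marks a shared culture or day, and pairing within an arm was inferred from these same data. Of the correlations of deviations from group means within an arm, 36 of 36 same-number pairs exceeded 0.1 (0.195 to 0.812), against 23 of 72 with different numbers. The 48 same-number pairs between arms lay between -0.748 and -0.0141. The block therefore has 6 levels. On simulated data for ug against the other environments in the E2 arm over 14489 genes, 96% of log2 changes of 1 were called without the block and 100% with it, with 0 and 7 false calls. In the data, Egr1, Nr4a1 and Nr4a3 differed by 1.03, 1.15 and 1.01 and were not called without the block. The true changes of these genes are not known, so the simulated shares cannot be taken to hold for them.

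The 7 genes, the lists, the motifs, the comparison of ug with the mean of C, 1g and 2g, and the tests were chosen with earlier results of these data known. Of each list, up to 4 called genes by p were named, otherwise those with the smallest p in ug against C in the E2 arm. The further genes that are named (A3galt2, Slc23a3, Klf4, Junb, Jun, Fosl1, Klf10, Sik1, Ppargc1a, Srf, Creb1, Nab1, Nab2, Rxra, Rxrb, Egr4 at ug and the marker genes) were chosen for their role or after their values were seen. The 10 genes most like the mean of the 7, and the 3 most like each, were taken by Pearson's r over within-set deviations. Alternatives were other blocks, quantile normalization, no filter, no variance trend, the mean over rows of a gene, fits to the compared arrays alone, leaving out each replicate, and, added after the data were seen, blocked fits under these settings, blocked fits without a set, and fits without 2 arrays of set IgG 2.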

Additional observations from a re-analysis of the deposited data

How the results depend on the processing

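The calls depended on how sets were treated. For ug against the other environments in the E2 arm, the count of called genes was 2 without a block, 26 with the replicate block within arm, 0 with the replicate number as a block over all arrays, 13 with set as a random block and 0 after quantile normalization. With the block kept, it was 26 after quantile normalization, 22 without the filter, 49 with the E2 arrays alone, 0 without the variance trend, and 115, 0 and 11 without set E2 1, E2 2 or E2 3. Of the 7 genes, 2 were called with the block, 2 with it after quantile normalization, 2 with it and no filter, 5 with it on the E2 arrays alone, 4 with it without set E2 1, and 0 with it without set E2 2, without set E2 3 or without the trend. It changed the call of none of the 7 in any other comparison. The replicate block also gave 7 called genes at 1g against C in the IgG arm, and set as a random block 3. For E2 against IgG at C, the 423 called genes became 0 with the random block, 46 after quantile normalization, 60 without the filter, 0 with only the arrays compared, and 0 to 928 leaving out 1 replicate: 0 without IgG C replicate 1 or 2 or E2 C replicate 3, 15 without E2 C replicate 2 and 928 without IgG C replicate 3. The cause was not tested.

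Leaving out 1 replicate gave 0 to 2 called genes for ug against the other environments in the E2 arm (2 only without E2 ug replicate 1), 0 to 1 for ug against C and 0 to 1 for ug against 1g there, and 0 to 14 for E2 against IgG at 1g. The differences of ug from the other environments in the E2 arm then ranged over 0.74 to 1.21 for Egr1, 0.42 to 1.01 for Egr2, 0.74 to 1.40 for Nr4a1, 0.13 to 0.41 for Nr4a2, 0.68 to 1.38 for Nr4a3 and 0.44 to 0.85 for Arc, lowest in all 6 without E2 ug replicate 2. Egr3 crossed 0 there (-0.063 to 0.28), against C (-0.12 to 0.22) and against 1g (-0.052 to 0.29). In the IgG arm, Egr2, Nr4a1 and Nr4a3 crossed 0 against the other environments (-0.17 to 0.49, -0.20 to 0.81 and -0.055 to 0.45) and against C (-0.19 to 0.48, -0.27 to 0.75 and -0.083 to 0.42), and against 1g so did Egr2 (-0.072 to 0.59) and Arc (-0.013 to 0.56). Egr2 also crossed 0 for E2 against IgG at C (-0.014 to 0.42), and for the difference between arms Egr1 (-0.0076 to 0.75) and Arc (-0.11 to 0.51). Leaving out the 2 arrays of set IgG 2 at 2g and ug, 1 gene was called for ug against the other environments in the IgG arm, and the difference between arms was -0.0076 for Egr1 and -0.071 for Arc. That choice of arrays followed the values of these same genes. Each of the 7 genes has 1 row, so the mean of a gene's rows gave the same levels, and the largest shift of any of their levels by quantile normalization was 0.084.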
